A study of Mus musculus with 8 samples.

Results

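The 26S proteasome is the cell's main machine for taking apart proteins that carry a ubiquitin tag. Its 20S core is a barrel of α rings, which gate the entrance, and β rings, 3 of whose subunits cut peptide bonds. A 19S cap on the barrel holds receptors that bind ubiquitin, enzymes that remove it and a ring of ATPases that unfolds the substrate and threads it into the core. Other activators (the products of Psme1 to Psme4) can open the core without the cap, and in macrophages some core subunits are exchanged for immunosubunits (encoded by Psmb8, Psmb9 and Psmb10), which changes the peptides made.

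The genes described here are those whose symbol is Psma, Psmb, Psmc, Psmd or Psme followed by a number, without Psmb8 and Psmb9, and with a mean normalized count of at least 10 over all mice. Of 53801 genes in the deposited table, 43 had such a symbol and 40 met the rule. Besides the excluded Psmb8 and Psmb9, Psmb11, the thymus-specific core subunit, fell short with a mean of 0.248, from 2 reads that both came from IL-33 mouse 2. The 40 comprise 8 genes for the α ring, 8 for the β ring, 6 for the ATPases of the cap, 11 for its other subunits, 3 for chaperones that assemble the base of the cap (Psmd5, Psmd9 and Psmd10) and 4 for activators. They are called constitutive proteasome genes below, although Psmb10 is an immunosubunit gene, Psma8 a testis-type α subunit gene, and the chaperones are not part of the finished particle.

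RNA was sequenced from microglia, the resident macrophages of the brain, taken from the cortex of 30-day-old mice. The IL-33 group (mice 1 to 4) received IL-33, a cytokine of the interleukin-1 family, into the ventricle of one hemisphere, and the vehicle group (mice 5 to 8) received vehicle, named PBS in the table's header. Tissue was collected 4 h later, and each group held 2 females and 2 males. The sources used here give no strain, allele or sorting marker. Recovered depth was 7053545 to 8478667 reads per IL-33 library and 6989640 to 9323677 per vehicle library. Vehicle mouse 6 stood apart, with a chi-square of recovered reads per gene of 15.5 to 18.8 against the other vehicle mice, where those gave 4.00 to 8.10 among themselves and IL-33 mice 4.10 to 10.7. Without that mouse the same 33 of the 40 genes below were called. Of 8 microglial marker genes all were read in every mouse. Their summed normalized counts lay between 97419 and 103930 in IL-33 mice and between 154254 and 176331 in vehicle mice, and 1 was called higher and 5 lower. All 4 neutrophil markers and Cd3e of T cells were at 0 reads in all mice. Cd79a of B cells averaged 4.02 normalized counts in IL-33 mice and 4.71 in vehicle mice. Ccr2, a monocyte marker, had 17.2 ± 5.35 in IL-33 mice and 63.4 ± 15.8 in vehicle mice (SD, n = 4 each) and was called lower. The other monocyte markers, Ly6c2 and Plac8, were too low to be tested. Mbp, a marker of oligodendrocytes, had 342 ± 62.8 normalized counts in IL-33 mice and 239 ± 13.4 in vehicle mice (SD, n = 4 each) and was called higher. Border macrophage markers summed to 206 to 257 in IL-33 mice and 625 to 700 in vehicle mice. Most of this was Mrc1, with 224 ± 24.2 in IL-33 mice and 624 ± 40.1 in vehicle mice, which was called lower. Cd163, Lyve1 and F13a1 had means under 10 in both groups and were too low to be tested. The part of these markers in the results was not tested. In bulk samples, fewer cells of a type and less RNA per cell cannot be told apart.

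The first comparison asked whether IL-33 moved the constitutive proteasome genes. Of 40 genes, 33 rose, none fell, and 7 were not called (limma on log2 normalized counts, Benjamini-Hochberg adjusted p under 0.05 over 15110 genes tested). Over all genes tested, 57.7% were called, 29.2% as higher and 28.5% as lower. The median log2 fold change of the 40 genes was 0.72, that is 1.65-fold, against 0.02 for all genes tested. In 32 of the 40 genes all 4 IL-33 mice lay above all 4 vehicle mice, and in none below, where 26.7% and 25.6% of all genes did so. Together the 40 genes took 0.273%, 0.293%, 0.272% and 0.284% of reads in IL-33 mice 1 to 4, against 0.176%, 0.178%, 0.169% and 0.174% in vehicle mice 5 to 8. The groups did not overlap, and the means were 0.280% ± 0.010 in IL-33 mice and 0.174% ± 0.00375 in vehicle mice (SD, n = 4 each). For mouse 2, the highest, the 95% binomial interval was 0.289% to 0.296%, so that counting error was small beside the gap between groups.

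The rises differed in size between genes. Fold changes of 32 of the 33 genes that rose lay between 0.4 and 1.3 on the log2 scale, with Psme2 at 1.73 above them. Of the 40 genes, 7 had a log2 fold change of 1 or more, against 11.4% of all genes tested: Psma6, Psmc1, Psmc5, Psmd1, Psmd7, Psmd14 and Psme2. The genes not called were Psma8, Psmb1, Psmb10, Psmc3, Psmd8, Psmd9 and Psme4. Mice of a group differed little from each other, with a median coefficient of variation over the 40 genes of 8.70% in IL-33 mice and 9.29% in vehicle mice. The most variable gene in each group was Psma8, with 25.4% in IL-33 mice and 31.2% in vehicle mice. In the authors' deposited table of their own comparison of the same libraries, 31 of the 40 genes are listed, all as higher, where 22.5% of the genes tested here are listed as higher. Psmb3 and Psmd13 were called here and are not listed there. That list ends at an adjusted p of 0.00996, and the limma adjusted p here was 0.0103 for Psmb3 and 0.0117 for Psmd13.

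**Figure D1:**
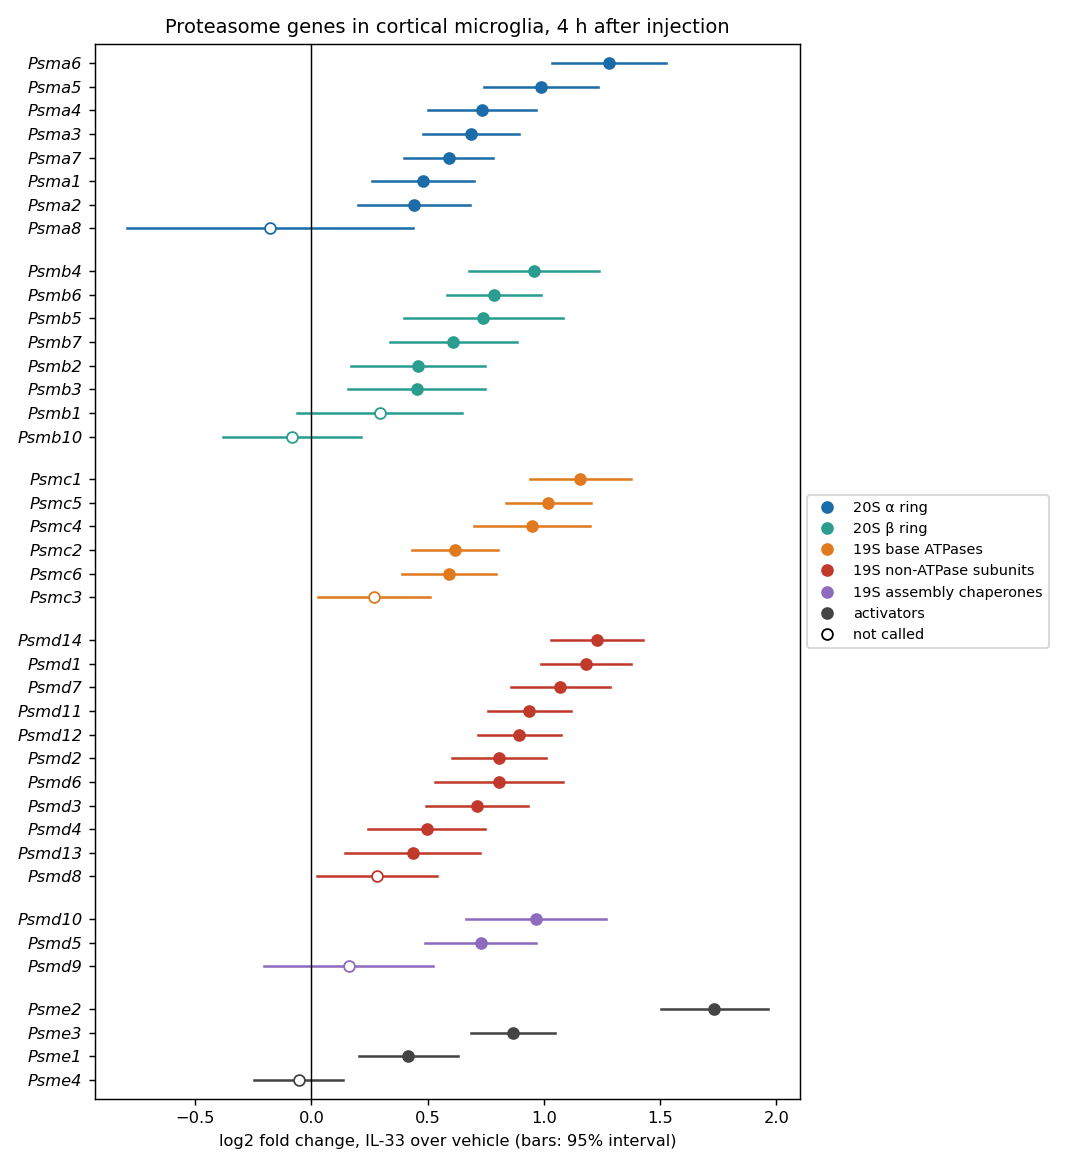
The x axis gives the log2 fold change of IL-33 over vehicle and its 95% interval for each of the 40 genes, grouped by role. Filled points (33) were called, and open points (7) were not. Nearly all filled points lie between 0.4 and 1.3, with Psme2 at 1.73.

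Set out by place in the particle, the cap had the larger median change. Of 20 cap genes, chaperones included, 17 rose, with a median log2 fold change of 0.81. Of 16 core genes 13 rose, with a median of 0.60, or 0.65 over the 14 left without Psma8 and Psmb10. Of 4 activator genes 3 rose, with a median of 0.64 and a range from -0.05 to 1.73. The upper end is Psme2, whose log2 fold change was 0.86 when its reads were summed with those of a copy, Psme2b. A log2 fold change of 1 or more was reached by 5 cap genes, 1 core gene and 1 activator gene. Measured in each mouse as the median deviation from the vehicle mean on the log2 scale, the cap genes stood at 0.72 to 0.87 in IL-33 mice and at -0.05 to 0.05 in vehicle mice. The core genes stood at 0.54 to 0.65 in IL-33 mice and at -0.16 to 0.10 in vehicle mice. The cap was above the core in each of the 4 IL-33 mice, and the difference between cap and core was not tested.

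**Figure D2:**
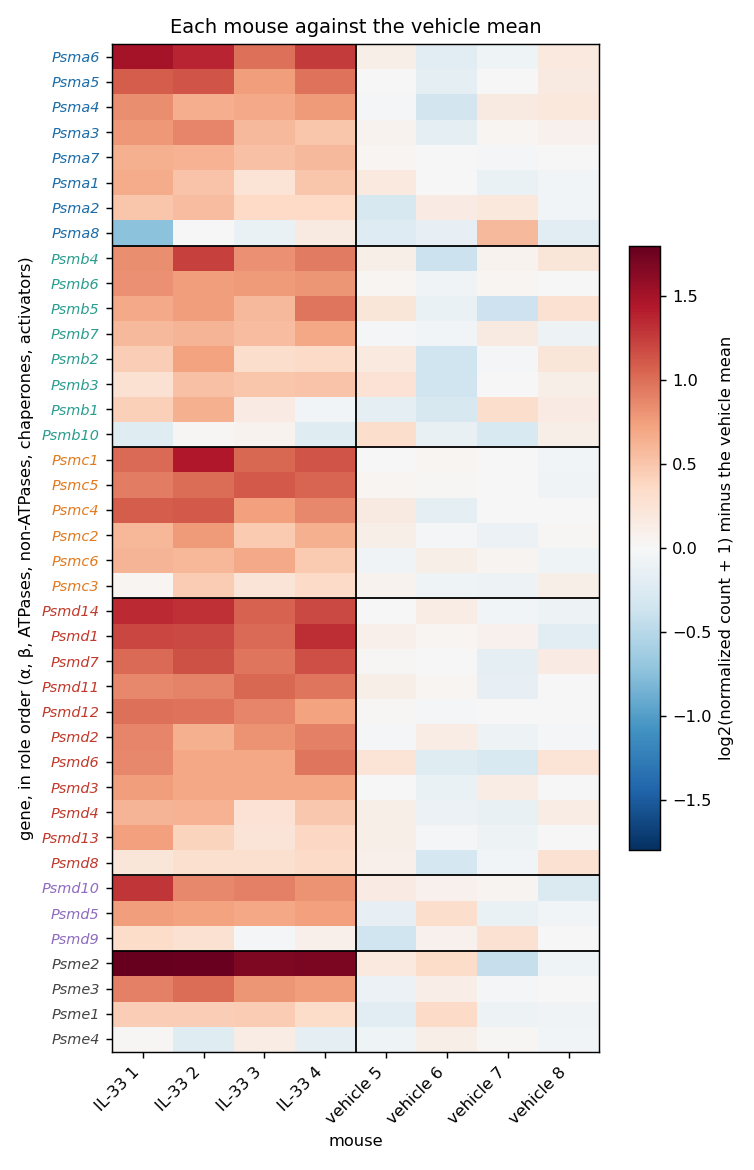
Each cell shows 1 gene in 1 mouse as log2(normalized count + 1) minus the mean of the 4 vehicle mice, with IL-33 mice on the left and genes in role order. Red marks values above the vehicle mean. The median over the 40 genes was 0.68 to 0.76 in IL-33 mice and -0.02 to 0.04 in vehicle mice.

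In the α ring, which forms the gate of the barrel, 7 of 8 genes rose. Psma6 (chr12:55384222-55418454 in GRCm38) rose most of all core genes. Its normalized counts were 995, 906, 697 and 844 in IL-33 mice, against 378, 303, 331 and 397 in vehicle mice, which is 1.28 ± 0.12 in log2 fold change (SE, adjusted p = 4.38e-08). The lowest IL-33 mouse was well above the highest vehicle mouse. Psma5 followed with 467 ± 53.0 in IL-33 mice and 235 ± 22.5 in vehicle mice (SD, n = 4 each), a log2 fold change of 0.99. The other genes of the ubiquitous ring rose by less, with log2 fold changes of 0.73 for Psma4, 0.69 for Psma3, 0.59 for Psma7, 0.48 for Psma1 and 0.44 for Psma2. Psma8 encodes the subunit that replaces the Psma7 product in male germ cells. It had 16.2, 27.8, 25.4 and 31.2 normalized counts in IL-33 mice, against 23.6, 25.1, 42.1 and 24.0 in vehicle mice. These few reads overlapped between groups, and the interval of the log2 fold change ran from -0.79 to 0.44 (adjusted p = 0.624), which leaves out a rise as large as that of Psma7.

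In the β ring, 6 of 8 genes rose, all 3 constitutive catalytic subunits among them. Psmb5 (chr14:54614119-54618022) carries the activity that cuts after hydrophobic residues and is the main target of proteasome inhibitor drugs. It had 194, 203, 181 and 236 normalized counts in IL-33 mice, against 140, 111, 93.3 and 146 in vehicle mice, which is 0.74 ± 0.16 in log2 fold change (SE, adjusted p = 0.000837). Psmb6 (chr11:70525367-70527858), which cuts after acidic residues, had 499, 476, 479 and 490 in IL-33 mice, against 289, 269, 288 and 280 in vehicle mice. Its log2 fold change was 0.79 ± 0.10 (SE, adjusted p = 1.69e-06), and it varied least of the catalytic genes within either group. Psmb7 (chr2:38588036-38644087), which cuts after basic residues, had 199, 201, 195 and 214 in IL-33 mice, against 130, 128, 148 and 124 in vehicle mice. Its log2 fold change was 0.61 ± 0.13 (SE, adjusted p = 0.000631). In all 3 genes the lowest IL-33 mouse lay above the highest vehicle mouse. Exons of Psmb7 share 405 bases with Nek6 on the opposite strand. Nek6 averaged 1316 normalized counts in IL-33 mice and 2328 in vehicle mice, the opposite direction, and the sources used here do not say whether counting used the strand.

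Of the 4 structural genes of the β ring measured here, 3 rose. Psmb4 rose most, with 553, 728, 548 and 590 normalized counts in IL-33 mice, against 333, 237, 322 and 359 in vehicle mice (log2 fold change 0.96 ± 0.13, SE, adjusted p = 9.16e-06). The groups did not overlap. Psmb2 rose by 0.46 and Psmb3 by 0.45 on the log2 scale. Psmb1 was not called: it had 263, 304, 214.6 and 188 in IL-33 mice, against 172, 159, 242 and 215.2 in vehicle mice. Its IL-33 females (the first 2 values) were above both vehicle females, and its IL-33 males were below both vehicle males, IL-33 mouse 3 and vehicle mouse 8 being nearly equal.

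The immunosubunit genes did not follow the catalytic genes they replace. Psmb10 (chr8:105935735-105938444), whose product takes the place of the Psmb7 product, had 203, 239, 247 and 203 normalized counts in IL-33 mice, against 294, 214, 194 and 252 in vehicle mice. The groups overlapped, and the interval of the log2 fold change was -0.38 to 0.21 (adjusted p = 0.630). Psmb9, the counterpart of Psmb6, had 196, 277, 209 and 200.4 in IL-33 mice, against 361, 280.3, 331 and 330.3 in vehicle mice. It fell without overlap to 220 ± 38.0 in IL-33 mice, against 326 ± 33.5 in vehicle mice (SD, n = 4 each), which is -0.57 in log2 fold change (adjusted p = 0.00132). Psmb8, the counterpart of Psmb5, had 143, 152, 143 and 129 in IL-33 mice, against 194, 136, 146 and 186 in vehicle mice. The groups overlapped, with a log2 fold change of -0.21 and an adjusted p of 0.248. Each immunosubunit was then set over the subunit it replaces, as the ratio within a mouse of normalized counts per kilobase of exon. Psmb8 over Psmb5 had a geometric mean ratio of 0.186 in IL-33 mice and 0.360 in vehicle mice, a log2 difference of -0.96. Psmb9 over Psmb6 was at 0.230 in IL-33 mice and 0.589 in vehicle mice, a log2 difference of -1.36. Psmb10 over Psmb7 was at 2.20 in IL-33 mice and 3.58 in vehicle mice, a log2 difference of -0.70. In each pair the 4 IL-33 mice lay below the 4 vehicle mice (two-sided exact permutation p = 0.0286, the smallest that 4 against 4 allows, and 0.0286 after Benjamini-Hochberg adjustment over the 3 pairs). Psmb9 shares 212 bases of sequence with Tap1, which was higher with IL-33, so reads there are uncertain. Exon lengths set the level of these ratios but not the difference between groups.

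**Figure D3:**
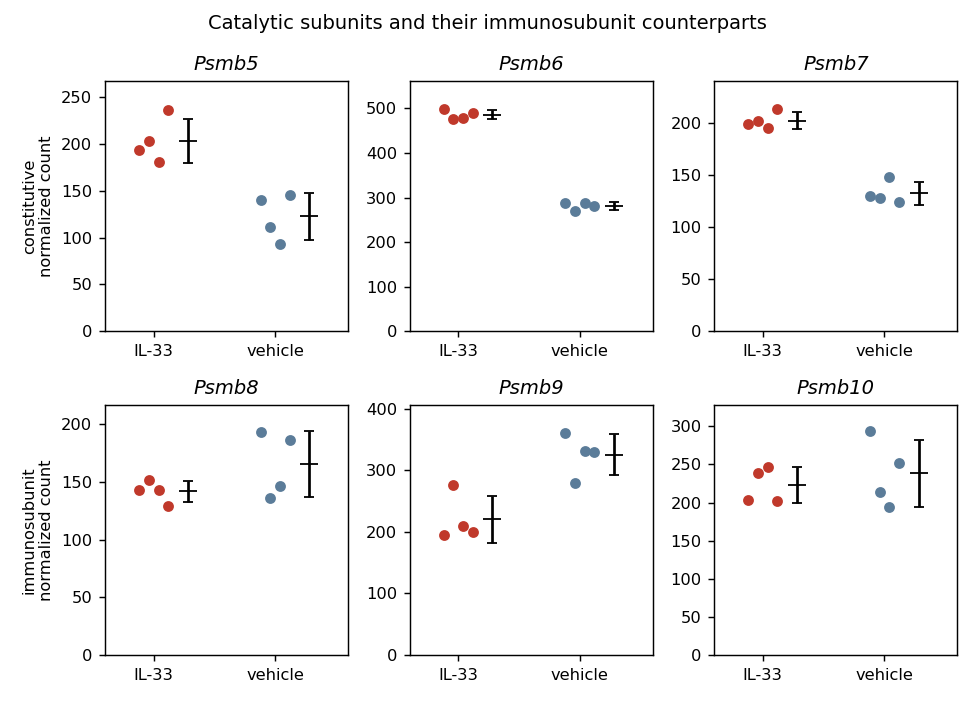
Normalized counts of the constitutive catalytic genes (top) and of the immunosubunit gene that replaces each (bottom), 1 point per mouse with the mean and SD (n = 4) beside them, and axes from 0. IL-33 mice are higher in the top row without overlap. In the bottom row Psmb9 is lower without overlap, and Psmb8 and Psmb10 overlap.

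Of the 6 ATPase genes, whose products form the ring that unfolds substrates, 5 rose. Psmc1 (chr12:100110154-100123405) had 626, 837, 634 and 681 normalized counts in IL-33 mice, against 310, 316, 310 and 299 in vehicle mice, which is 1.16 ± 0.10 in log2 fold change (SE, adjusted p = 3.81e-08). Vehicle mice were nearly equal and every IL-33 mouse stood well above them. Psmc5 rose by 1.02 and Psmc4 by 0.95 on the log2 scale, and Psmc2 and Psmc6 by 0.62 and 0.59. Psmc3 had 317, 426, 365 and 395 in IL-33 mice, against 323, 294, 289 and 334 in vehicle mice, with an interval of the log2 fold change from 0.03 to 0.51 (adjusted p = 0.0515). IL-33 mouse 1 was the one within the vehicle range. Exons of Psmc3 share 215 bases with Slc39a13 on the opposite strand, which averaged 595 in IL-33 mice and 354 in vehicle mice.

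Of the 11 other cap genes, 10 rose, and this group held the largest changes of the cap. Psmd14 (chr2:61711694-61800376) encodes the metalloprotease of the cap that cuts ubiquitin chains off substrates. It had 688, 675, 566 and 618 normalized counts in IL-33 mice, against 270, 298, 262 and 253 in vehicle mice, which is 1.23 ± 0.09 in log2 fold change (SE, adjusted p = 5.17e-09). Psmd7, which encodes its partner in the lid, rose by 1.07 on the log2 scale. Psmd1 (chr1:86064387-86139151), which encodes 1 of the large scaffold subunits, had 1367, 1358, 1210 and 1495 in IL-33 mice, against 633, 613, 628 and 517 in vehicle mice, which is 1.18 in log2 fold change (adjusted p = 6.15e-09). In both genes the lowest IL-33 mouse lay above the highest vehicle mouse. Psmd2, the other large scaffold gene and the docking platform for shuttle proteins, rose by 0.81. Psmd4, a ubiquitin receptor, rose by 0.50.

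The lid scaffold genes covered the rest of the range. Psmd11, which in the particle braces the cap against the core, rose to 1202 ± 58.6 in IL-33 mice, against 628 ± 45.8 in vehicle mice (SD, n = 4 each), a log2 fold change of 0.94. Psmd12 rose by 0.89, Psmd6 by 0.81, Psmd3 by 0.71 and Psmd13 by 0.44. Psmd8 was not called, with 300.2, 316, 316 and 327 in IL-33 mice, against 275, 208, 249 and 313 in vehicle mice. Its vehicle mouse 8 lay above IL-33 mouse 1, and the interval was 0.03 to 0.54 (adjusted p = 0.0565). Psmd13 shares 342 exonic bases with Sirt3 on the opposite strand, which averaged 75.8 in IL-33 mice and 100.5 in vehicle mice. Psmd11 has a close copy, A730017L22Rik, which averaged 54.3 in IL-33 mice and 73.9 in vehicle mice.

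Of the 3 chaperones of base assembly, 2 rose. Psmd10 (chrX:140948429-140956728), also known as gankyrin, had 274, 204, 210 and 197 normalized counts in IL-33 mice, against 124, 118, 115 and 93.1 in vehicle mice, which is 0.97 ± 0.14 in log2 fold change (SE, adjusted p = 1.60e-05). All 4 IL-33 mice exceeded the vehicle mice. Psmd5 rose to 443 ± 6.98 in IL-33 mice, against 269 ± 42.4 in vehicle mice (SD, n = 4 each), a log2 fold change of 0.73. Psmd9 had 130, 125, 101 and 110 in IL-33 mice, against 80.8, 109, 125 and 104 in vehicle mice. These overlapped, with an interval from -0.20 to 0.52 (adjusted p = 0.447).

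The activators differed among themselves. Psme1 and Psme2 encode the subunits of the cytosolic ring that is known as interferon-induced and as a partner of the immunoproteasome, Psme3 encodes a nuclear ring of a related subunit, and Psme4 a large nuclear activator made of a single chain. Psme2 (chr14:55587441-55591113) had 901, 894, 832 and 844 normalized counts in IL-33 mice, against 293, 326, 195 and 246 in vehicle mice, which is 1.73 ± 0.11 in log2 fold change (SE, adjusted p = 4.24e-10). This was the largest value of the 40 genes as deposited, and the lowest IL-33 mouse was above the highest vehicle mouse. Summed with its near-identical copy Psme2b, the log2 fold change was 0.86, under the 1.28 of Psma6. Psme1 (chr14:55578123-55581529), its neighbour on the chromosome, had 1116, 1118, 1132 and 1033 in IL-33 mice, against 723, 1046, 772 and 787 in vehicle mice, which is 0.42 ± 0.10 in log2 fold change (SE, adjusted p = 0.00191). It was the called gene whose groups overlapped, by vehicle mouse 6 alone, and the log2 fold change was 0.53 without that mouse. Psme3 (chr11:101316213-101323537) had 1135, 1214, 1044 and 1016 in IL-33 mice, against 560, 656, 590 and 609 in vehicle mice. It rose by 0.87 ± 0.09 on the log2 scale (SE, adjusted p = 1.33e-07) with no overlap. Psme4 (chr11:30771726-30880361) had 1126, 950, 1207 and 992 in IL-33 mice, against 1048, 1186, 1125 and 1066 in vehicle mice. Its interval, -0.25 to 0.14 (adjusted p = 0.628), left out a change of the size of any called member.

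**Figure D4:**
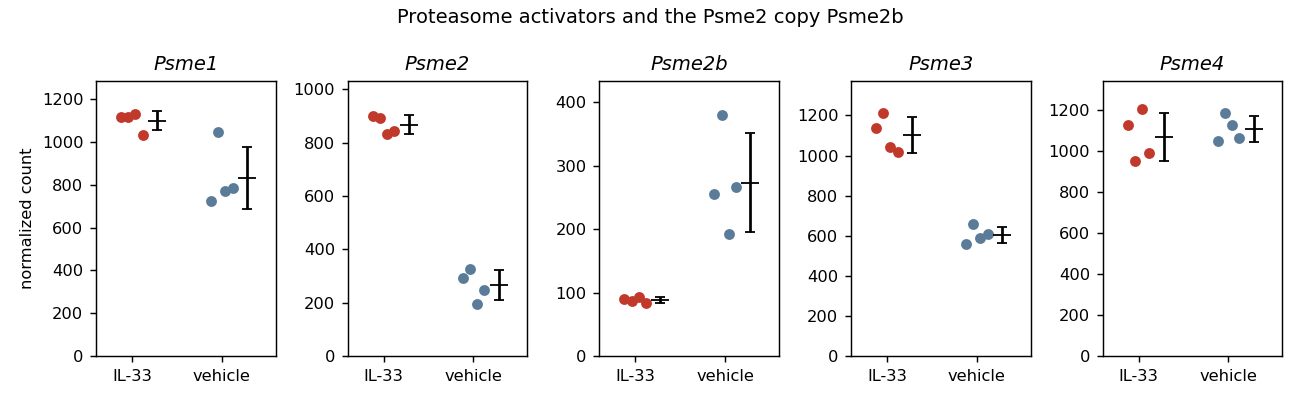
Normalized counts of the 4 activator genes and of Psme2b, a near-identical copy of Psme2, 1 point per mouse with the mean and SD (n = 4), and axes from 0. Psme2 and Psme3 are higher in IL-33 mice without overlap, Psme2b is lower without overlap, and vehicle mouse 6 of Psme1 lies within the IL-33 range.

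The count of Psme2 depends on how reads were shared with Psme2b (chr11:48945354-48946190), a copy on another chromosome. The coding sequences in GENCODE M21 are both 717 bases long, differ at 5 bases (99.3% identity) and have 311 identical bases in their longest common run. Bases 424 to 543 of each are shown because they hold 3 of the 5 differences, in capitals, and show how few positions tell the genes apart.
Psme2: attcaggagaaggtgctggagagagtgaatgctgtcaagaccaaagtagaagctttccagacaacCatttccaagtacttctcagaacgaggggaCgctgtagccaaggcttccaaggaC
Psme2b: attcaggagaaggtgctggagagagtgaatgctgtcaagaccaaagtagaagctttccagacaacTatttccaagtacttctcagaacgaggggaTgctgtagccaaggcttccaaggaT
Psme2b had 89.3, 86.3, 93.2 and 83.5 normalized counts in IL-33 mice, against 255, 380, 192 and 267 in vehicle mice, which is -1.58 ± 0.17 in log2 fold change (SE, adjusted p = 3.22e-07). The counts assigned to each copy thus moved in opposite directions, without overlap between groups. Summed over both, the counts were 990, 980, 925 and 927 in IL-33 mice, against 548, 706, 387 and 513 in vehicle mice. The sum rose by 0.86 ± 0.11 on the log2 scale (SE, adjusted p = 5.40e-06), near the change of Psme3. The sources used here do not say how reads that match both genes were counted.

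Other genes also share sequence with members. Of the 40 genes and both excluded immunosubunits, 18 had another transcript at 90% identity or more over 200 bases or more, overlapping genes included, and for 9 of them that gene had a mean normalized count of at least 10. Psme2b, A730017L22Rik and the overlapping genes Nek6, Tap1 and Sirt3 account for 5 of the 9 and are described with their partners. The other 4 are processed pseudogenes. Gm14227, a copy of Psmb3, averaged 32.9 in IL-33 mice and 33.0 in vehicle mice, and Gm6542, a copy of Psma4, averaged 29.4 in IL-33 mice and 28.1 in vehicle mice. Gm13835, identical to Psma3 over 665 bases, averaged 21.6 in IL-33 mice and 16.3 in vehicle mice. Gm3375, a copy of Psmb5, averaged 12.8 in IL-33 mice and 8.68 in vehicle mice. All 4 pseudogenes had lower means than their parent genes.

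Levels were compared between genes as normalized counts per kilobase of exon. The median level over the 40 genes was 173 in IL-33 mice and 107 in vehicle mice. In IL-33 mice the highest levels were 697 ± 102 for Psma6, 580 ± 31.1 for Psmc5, 498 ± 20.5 for Psme1 and 492 ± 19.7 for Psme2, and in vehicle mice they were 377 ± 65.7 for Psme1, 286 ± 34.8 for Psma6 and 285 ± 9.21 for Psmc5 (SD, n = 4 each). The lowest were Psma8, at 10.1 in IL-33 mice and 11.5 in vehicle mice, and Psmd9, at 16.1 in IL-33 mice and 14.5 in vehicle mice. Neighbours in the order mostly could not be ranked, since 30 of 39 neighbouring pairs in IL-33 mice and 32 of 39 in vehicle mice lay within the larger SD of the pair. Psme2, as deposited, stood in place 4 of 40 in IL-33 mice and in place 12 in vehicle mice. Summed with Psme2b, its mean normalized count was 956 in IL-33 mice and 538 in vehicle mice, against 868 and 265 alone. Its place with the copy summed was not computed. Psmb10 stood in place 29 in IL-33 mice and 13 in vehicle mice, and Psme4 in place 30 in IL-33 mice and 17 in vehicle mice. The order depends on the exon length used. With the longest protein-coding transcript, 6 of the 10 highest genes in IL-33 mice and 5 of the 10 in vehicle mice were shared with the order above.

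Females and males were compared next. The IL-33 effect had the same sign in both sexes, higher, for 35 of the 40 genes, including all 33 that were called. Between females and males, 0 of the 40 genes were called by limma, where 0.0596% of all genes were, and 1 had an unadjusted p under 0.05, where 5.03% of all genes did. That gene was Psme2, with a female minus male difference of 0.30 on the log2 scale (unadjusted p = 0.0148, adjusted p = 0.913 by limma). For the interaction of treatment and sex, with 2 mice per sex and treatment, limma called 0 of the 40, where 0.00662% of all genes were called, and 2 had an unadjusted p under 0.05, where 8.31% of all genes did. Those were Psmb1, with a log2 fold change of 0.77 in females and -0.18 in males (interaction adjusted p = 0.251 by limma), and Psma3, with 0.88 in females and 0.49 in males (adjusted p = 0.553). edgeR called 0 of the 40 for either term.

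Genes that build or hold the particle under other names were counted by list. Of 5 chaperones of core assembly 1 rose, Psmg3, which had 52.6 ± 6.88 in IL-33 mice and 35.2 ± 9.13 in vehicle mice (SD, n = 4 each, log2 fold change 0.59, adjusted p = 0.0472), and the median log2 fold change was 0.14. Pomp, the maturation factor of the core, had 732 ± 65.8 in IL-33 mice and 846 ± 70.9 in vehicle mice (log2 fold change -0.21, adjusted p = 0.0653). Of 4 cap-bound genes 2 rose, with a median of 0.49. These were Usp14, a deubiquitinase, with 940 ± 23.8 in IL-33 mice and 409 ± 80.2 in vehicle mice (log2 fold change 1.22, adjusted p = 2.66e-08), and Adrm1, a ubiquitin receptor, with 421 ± 9.71 in IL-33 mice and 222 ± 48.2 in vehicle mice (log2 fold change 0.94, adjusted p = 9.83e-06). The small cap subunit gene Sem1 and the deubiquitinase gene Uchl5 had log2 fold changes of 0.04 and 0.03 and were not called. Of 3 inhibitor and assembly factor genes, Psmf1 and Ecpas rose, by 0.32 and 0.22 on the log2 scale, and Akirin2 fell. Akirin2, a nuclear protein known to bring proteasomes into the nucleus and to act with transcription factors of inflammatory genes, fell to 359 ± 15.2 in IL-33 mice, against 937 ± 37.4 in vehicle mice (log2 fold change -1.38, adjusted p = 3.60e-10).

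Genes that feed and control the proteasome were counted in the same way. Nfe2l1 encodes NRF1, a transcription factor held at the endoplasmic reticulum that is known to drive proteasome subunit genes when proteasome activity falls short. It rose to 1598 ± 74.1 in IL-33 mice, against 619 ± 46.4 in vehicle mice (SD, n = 4 each, log2 fold change 1.37, adjusted p = 2.51e-10). Nploc4, a cofactor of the segregase that pulls NRF1 out of the membrane, rose to 848 ± 21.5 in IL-33 mice, against 424 ± 34.0 in vehicle mice (log2 fold change 1.0, adjusted p = 3.20e-08). Of the 9 genes of this route, 6 rose and 1 fell, with a median log2 fold change of 0.42. The other rises were 0.83 for Nfe2l2, a related transcription factor, 0.52 for Vcp, the segregase, 0.42 for Sel1l and 0.31 for Syvn1, both of the ligase complex, with overlapping groups for Syvn1. The gene that fell was Ddi2, the protease that cuts NRF1, with 798 ± 21.5 in IL-33 mice and 976 ± 63.5 in vehicle mice (log2 fold change -0.29, adjusted p = 0.00497). The part of this route in the changes of the proteasome genes was not tested.

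Of 6 shuttle factor genes, whose products carry ubiquitinated proteins to the cap, 3 rose and 2 fell, with a median log2 fold change of 0.36. Ubqln4 rose to 490 ± 27.4 in IL-33 mice, against 234 ± 44.2 in vehicle mice (SD, n = 4 each, log2 fold change 1.08, adjusted p = 1.41e-06). Ubqln2 fell to 125 ± 20.1 in IL-33 mice, against 204 ± 65.3 in vehicle mice, with overlapping groups (log2 fold change -0.65, adjusted p = 0.00734). Rps27a, which encodes ubiquitin joined to a ribosomal protein, rose with a log2 fold change of 1.0, and Ubb, which encodes linked copies of ubiquitin, had one of -0.05 and was not called. Of 5 genes of the class I peptide route, which loads proteasome products for display, 3 rose, with a median of 0.26. They were Tap1, a peptide transporter, by 0.57, Erap1, a trimming peptidase, by 0.44, and B2m, the class I light chain, by 0.26 on the log2 scale. These lists are small, and their counts stand against the 29.2% of all genes that rose and the 28.5% that fell.

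**Figure D5:**
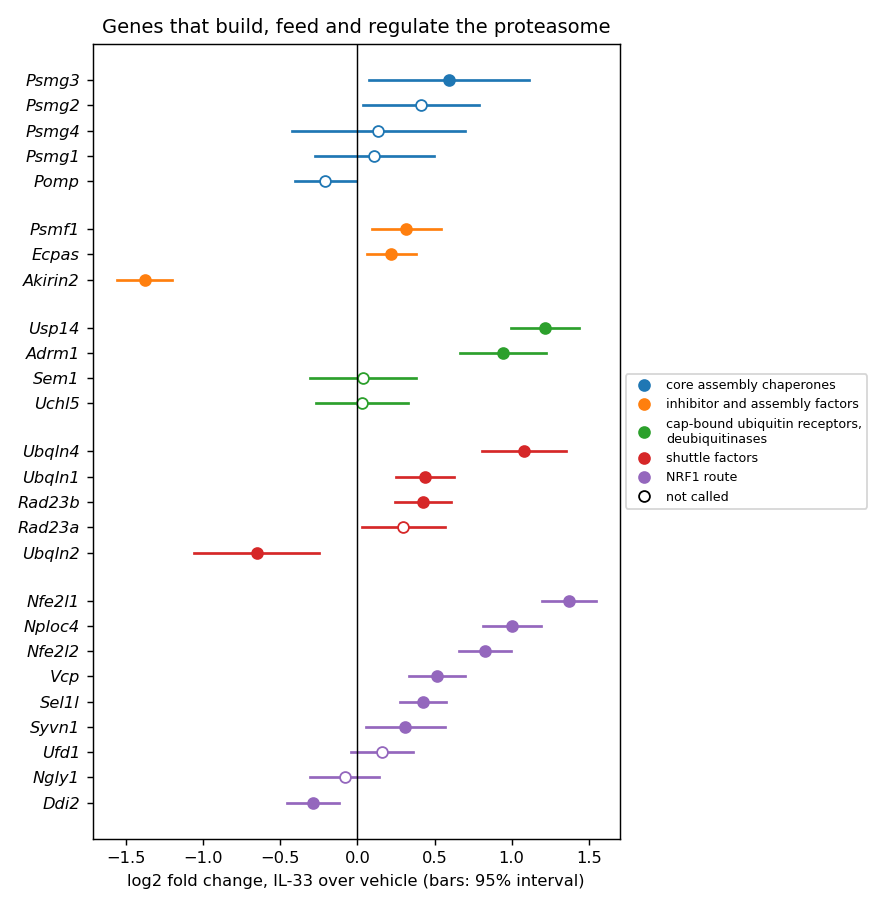
The x axis gives the log2 fold change of IL-33 over vehicle and its 95% interval for genes of 5 related lists. Filled points were called. Nfe2l1 (1.37) and Usp14 (1.22) lie farthest to the right and Akirin2 (-1.38) farthest to the left, and Ddi2, which is on 2 lists, is drawn once.

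Since most subunit genes moved together, their promoters were searched for motifs of factors that are known to act on proteasome or interferon genes. RefSeq promoters (GRCm38.p6, 250 bases before to 50 after the start) were found for 33 of the 40 genes, all but Psma8, Psmb1, Psmb2, Psmb7, Psmc3, Psmd3 and Psmd7, and for 27025 genes in all. On either strand, the antioxidant response element TGACNNNGC, which NRF1 binds, stood in 6 of the 33 promoters (18.2%) and in 14.0% of all. The interferon-stimulated element (GAAA and GAAA with 2 bases between) stood in 4 (12.1%) and in 3.99% of all, namely Psmb3, Psmd4, Psmd9 and Psme1. Of these, Psmd9 was not called, and Psmb3, Psmd4 and Psme1 rose by 0.45, 0.50 and 0.42 on the log2 scale. The median of the 40 genes was 0.72. The NF-kB motif (GGG and CC with 5 bases between) stood in 19 (57.6%) and in 53.5% of all, the STAT motif TTCNNNGAA in 1 (3.03%) and in 9.55% of all, and the NF-Y motif CCAAT in 12 (36.4%) and in 41.1% of all. The antioxidant element was found in Psmb5, Psmb6, Psmc6, Psmd9, Psmd12 and Psme4, of which Psmd9 and Psme4 were not called. A match is a run of letters and no shown binding. Whether genes with a motif changed differently from genes without it was not tested.

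The promoters of 2 catalytic genes that rose and of the neighbouring activator genes are shown because they place these matches beside members with different changes. Each runs from 150 bases before the RefSeq start through the first 25 bases of the transcript, 5′ to 3′ on the gene's own strand, with matches to the antioxidant, interferon-stimulated or NF-kB motif in capitals. The windows are chr14:54617971-54618145 (minus strand) for Psmb5, chr11:70525207-70525381 (plus) for Psmb6, chr14:55578344-55578518 (plus) for Psme1 and chr14:55591077-55591251 (minus) for 1 of the RefSeq starts of Psme2. The GENCODE record of Psme1 begins upstream of the RefSeq start used here.
Psmb5: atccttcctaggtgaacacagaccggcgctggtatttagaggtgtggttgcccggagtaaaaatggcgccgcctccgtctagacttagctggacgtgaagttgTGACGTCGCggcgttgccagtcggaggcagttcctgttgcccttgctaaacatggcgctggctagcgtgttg
Psmb6: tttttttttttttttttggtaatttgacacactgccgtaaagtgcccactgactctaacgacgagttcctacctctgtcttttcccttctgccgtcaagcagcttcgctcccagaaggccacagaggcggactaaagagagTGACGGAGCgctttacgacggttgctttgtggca
Psme1: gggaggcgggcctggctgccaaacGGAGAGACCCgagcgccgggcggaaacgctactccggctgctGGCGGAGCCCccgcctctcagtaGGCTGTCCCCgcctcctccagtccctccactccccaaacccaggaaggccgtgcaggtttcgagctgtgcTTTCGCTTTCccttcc
Psme2: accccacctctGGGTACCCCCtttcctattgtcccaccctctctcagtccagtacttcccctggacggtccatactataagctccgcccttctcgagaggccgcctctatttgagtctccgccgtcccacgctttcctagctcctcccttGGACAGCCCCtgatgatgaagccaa
Psmb5 and Psmb6 each hold 1 antioxidant element, which begins 47 bases before the start in Psmb5 and 9 before it in Psmb6, and their log2 fold changes were 0.74 and 0.79. Psme1 holds the interferon-stimulated element, beginning 9 bases past the start, and 3 NF-kB matches, and rose by 0.42. Psme2 holds NF-kB matches and no interferon-stimulated or antioxidant element in these letters, and rose by 1.73, or by 0.86 summed with Psme2b. Psme4, whose promoter holds the antioxidant element, had a log2 fold change of -0.05. The part of these matches in the changes was not tested.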

How the data were processed

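Per the labels' protocols, homogenized cortex was kept cold, a Percoll gradient (22%) enriched the cells before sorting, and a Nugen Ovation kit gave the libraries. The builds mm10 and GRCm38 and the tools DESeq2 1.24.0, HTSeq 0.9.0, STAR 2.6.0 and FastQC stand in the submitters' processing notes, without roles. The values deposited by the authors are a signal, normalized counts (reads over 1 size factor per library), of which 100% were whole multiples of a step, within 0.001 reads, so that reads could be recovered. The authors' deposited table of their comparison holds log2 fold changes, p-values, raw and adjusted, and a score (fold over its standard error), with adjusted p up to 0.00996.

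Symbols of all 40 members matched GENCODE M21 (53706 of 53801 identifiers were found there), which gave coordinates and exons. Genes with 10 or more in at least 4 of 8 libraries (15110, all 40 members among them) were tested with limma 3.58.1 (trend, robust, treatment and sex) in R 4.3.3 on log2(normalized count + 1), two-sided, with an adjusted p under 0.05 called. Fold changes on this scale are drawn towards 0 for low genes. All 12 pairs of mice within a group differed beyond sampling noise (chi-square per gene 4.00 to 18.8, highest with vehicle mouse 6), so each mouse was 1 replicate. Binomial intervals (95%, Wilson score) cover counting error only. Copies were found with blastn 2.17.0. The pipeline was tested on simulated data. Alternatives were other pseudocounts, filters and normalizations, edgeR 4.0.16, DESeq2 1.42.0, single sexes and leaving out each mouse. All members could be named. Values per mouse are given for Psmb5, Psmb6, Psmb7, Psmb10, Psmb8, Psmb9, the activators and the largest rise of each role. They are also given, outside that list, for Psma8, Psmb1, Psmc3, Psmd1, Psmd8, Psmd9 and Psme2b. Of related lists up to 2 called genes each were named by the rule. Other genes were named after their values were seen. Members and lists were chosen with earlier results of these data known. Paaf1 of the planned lists was not analysed here, and some other listed genes are not reported here.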

Additional observations from a re-analysis of the deposited data

Results flagged for a closer look

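Over 86 sets of 4 mice checked, 7 held a mouse far from the other 3, by Dixon's test, which chance gives in about 1 set in 20. IL-33 mouse 1 was the one in 3 of them. It was lowest for Psmb3, with 223.2 normalized counts where the others had 263 to 268. It was highest for Psmd10, with 274 where the others had 197 to 210, and for Psmd3, with 406 where the others had 387 to 389. For Psme1, IL-33 mouse 4 was lowest, with 1033 where the others had 1116 to 1132. Among vehicle mice, mouse 6 was lowest for Psma3, with 478 where the others had 554 to 565. Mouse 5 was highest for Psma7, with 345 where the others had 330 to 333, and mouse 7 for Psma8, with 42.1 where the others had 23.6 to 25.1.

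Psmb1 was marked because its IL-33 effect differed between the sexes by 0.95 on the log2 scale (female minus male effect). Both IL-33 females were above both vehicle females, and both IL-33 males below both vehicle males, by less than 1 normalized count for IL-33 mouse 3 (214.6) against vehicle mouse 8 (215.2). The limma interaction had an unadjusted p of 0.00112 and did not pass adjustment over all genes (adjusted p = 0.251).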

How the results depend on the processing

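No paired analysis was run, because the sources used here name no pairs between mice 1 to 4 and mice 5 to 8. With each mouse left out in turn, 32 to 34 of the 40 genes rose and 0 fell, and 8064 to 8712 genes were called in all. The same 33 genes rose with edgeR, DESeq2, TMM, quantile normalization, other pseudocounts, no filter, and limma without trend and robust settings. Psmc3 was also called with a mean of 50 or more (adjusted p = 0.0459) and with no sex term (0.0454). In females alone Psmb3, Psmd13 and Psme1 lost the call and Psmb1 gained it, and in males alone Psma2, Psmb2, Psmd4 and Psmd13 lost it. Psmd13 lost it without IL-33 mouse 1 (adjusted p = 0.0576), which also brought in Psmc3 (0.0165), and Psmb2 without IL-33 mouse 2 (0.0503). Psmb1 gained it without IL-33 mouse 4 (0.0456), and Psmd8 without vehicle mouse 5 (0.0339) or 8 (0.0273). The log2 ratio differences ran from -1.02 to -0.84 for Psmb8/Psmb5, -1.48 to -1.29 for Psmb9/Psmb6 and -0.85 to -0.58 for Psmb10/Psmb7 without 1 mouse. With transcript in place of exon length, chosen after seeing the data, 6 of the 10 highest genes in IL-33 mice and 5 in vehicle mice were shared. Summing Psme2 with Psme2b, also chosen after seeing the data, moved the log2 fold change to 0.86, against 1.73 for Psme2 alone. Size factors set the median change near 0, which hides any change in total RNA per cell.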
